A study of Caenorhabditis elegans with 24 samples.

Results

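The genes described here are 10 Argonautes of the small RNA pathways of *C. elegans*: *sago-1*, *wago-1*, *wago-4*, *hrde-1*, *prg-1*, *csr-1*, *ergo-1*, *alg-1*, *alg-2* and *alg-5*. They were chosen by WormBase symbol, with results of these data known, so the comparisons of these genes between conditions are given as a description. Each of the 10 symbols matched 1 gene of the 46934 in the count table, and all 10 were among the 15256 genes tested, which had at least 10 counts in at least 3 libraries. Polyadenylated RNA was sequenced from whole animals, about 800 per sample at day 1 of adulthood, all grown at 20 °C on bacteria carrying the empty RNAi vector. The 24 libraries were 3 biological replicates of untreated (UT) and 3 of heat-shocked (HS) animals of 4 genotypes, where heat-shock was 2 h at 34 °C with 1 h of recovery at 20 °C. N2 is the wild-type strain. *hsf-1FL* animals overexpress full-length *hsf-1*, the main transcription factor of the heat-shock response, from the pan-neuronal *rab-3* promoter, and *hsf-1CTD* animals overexpress *hsf-1* lacking its C terminus from the same promoter. *hsf-1(sy441)* animals (sy441 below) carry a mutation that removes the C terminus of the endogenous HSF-1 in every tissue. The strains derive from N2.

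Argonautes are proteins that hold a small RNA and use it to find matching transcripts. In *C. elegans* the family has expanded, and its members divide the labour by the small RNA they carry. ALG-1, ALG-2 and ALG-5 carry microRNAs, ERGO-1, ALG-3, ALG-4, RDE-1 and PRG-1 carry primary small RNAs, and CSR-1 and the worm-specific WAGO group carry secondary small RNAs made by RNA-dependent RNA polymerases. Many of them act in the germline, which makes up much of an adult hermaphrodite. In bulk RNA of whole animals, fewer cells of a type and less RNA per cell cannot be told apart.

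Library totals ranged from 11215696 to 19794446 counts, and levels are given as CPM, counts scaled to a common library size. The heat-shock itself was seen in every genotype, since the summed level of 7 small and large heat-shock genes was at most 11.7 CPM in the untreated libraries and at least 734 CPM in the heat-shocked ones. The *hsf-1* transcript was at 49.6 to 103 CPM in the 6 sy441 libraries and 96.3 to 165 CPM in the 6 N2 libraries. It was at 146 to 154 CPM in untreated *hsf-1FL* and 125 to 151 CPM in untreated N2, so a higher total from the neuronal transgene was not visible in these counts. Several libraries of *hsf-1FL* and sy441 held more sperm transcripts than N2. The summed level of 56 sperm genes was 6.96 to 24.9 CPM in N2, 7.93 to 22.9 CPM in *hsf-1CTD*, 61.2 to 579 CPM in *hsf-1FL* and 41.0 to 1959.8 CPM in sy441, highest in replicate 3 of sy441. Across genotypes, 3 of the 56 genes were at 0 in every library.

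The 10 genes differed widely in level. Per kilobase of exon, in untreated N2, *wago-1* was highest at 323 ± 56.7 CPM per kilobase (SD, n = 3) and *hrde-1* followed at 282 ± 67.1 CPM per kilobase. WAGO-1 is a cytoplasmic Argonaute of germ granules and HRDE-1 a nuclear one needed for inheritance of silencing through the germline. A second tier held *csr-1* at 141 ± 17.1, *prg-1* at 133 ± 33.6 and *ergo-1* at 121 ± 14.5 CPM per kilobase. CSR-1 protects germline transcripts, PRG-1 is the Piwi protein that carries piRNAs, and ERGO-1 carries 26G RNAs in oocytes and embryos. Below them lay *wago-4*, an Argonaute of inherited silencing in germ granules, at 61.7 ± 6.70 and the germline microRNA Argonaute *alg-5* at 56.1 ± 5.86 CPM per kilobase. The lowest 3 were *alg-2* at 21.2 ± 1.56, *sago-1* at 17.6 ± 2.23 and *alg-1* at 12.5 ± 3.60 CPM per kilobase. Within each of these 4 tiers, neighbours in the order overlapped within 1 SD, and between tiers they did not. *wago-1* and *hrde-1* were the highest of the 10 in each of the 8 conditions.

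**Figure D1:**
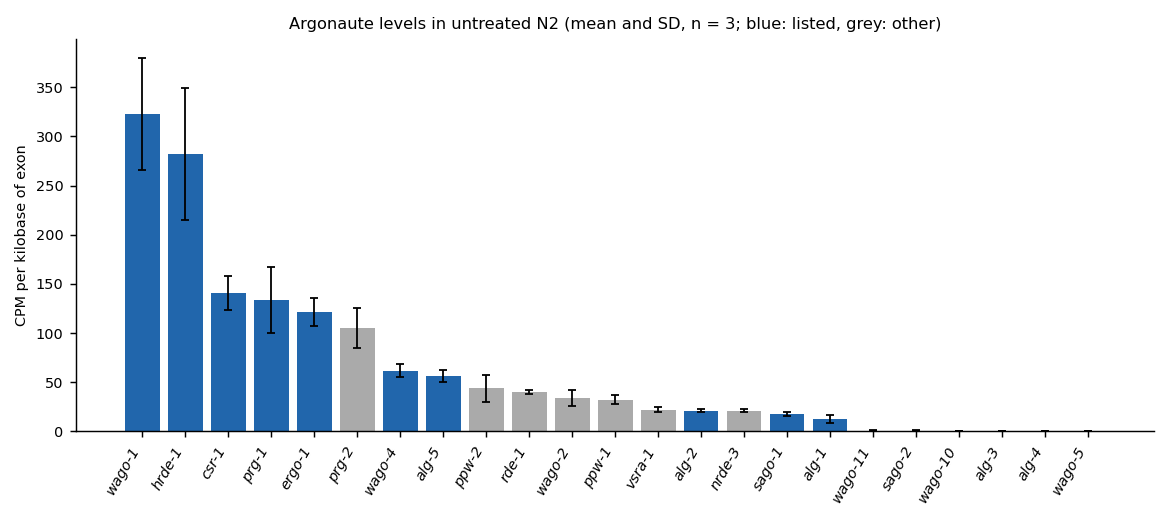
Mean CPM per kilobase of exon with SD (3 libraries of untreated N2) for the 10 listed Argonautes in blue and 13 other Argonautes in grey, in order of level. *wago-1* and *hrde-1* stand highest at 323 and 282 CPM per kilobase, and *sago-1* is near the lower end of the listed genes at 17.6.

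*sago-1* (chromosome V, 6303771 to 6308337, plus strand, WBcel235; 15 exon blocks) encodes one of the WAGO Argonautes that carry secondary small RNAs in RNAi. In N2 its level was 61.2, 53.8 and 47.5 CPM in the untreated libraries and 29.4, 28.3 and 36.3 CPM in the heat-shocked libraries. In *hsf-1FL* it was 60.6, 54.9 and 41.9 CPM untreated and 28.1, 29.7 and 33.4 CPM heat-shocked. All heat-shocked libraries of these 2 genotypes thus lay below all of their untreated libraries. In *hsf-1CTD* the *sago-1* level was 53.6, 56.5 and 45.4 CPM untreated and 26.8, 22.6 and 30.9 CPM heat-shocked. In sy441 it was 58.3, 57.4 and 60.6 CPM untreated and 19.5, 22.7 and 22.4 CPM heat-shocked. The sy441 heat-shocked libraries were the lowest of all conditions on average, at 21.5 ± 1.74 CPM, while untreated sy441 had the highest mean, 58.8 ± 1.65 CPM (SD, n = 3).

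On the log2 scale the *sago-1* difference between heat-shocked and untreated animals was -1.45 (SE 0.15) in sy441, -0.95 (SE 0.15) in *hsf-1CTD*, and -0.79 (SE 0.15) in both *hsf-1FL* and N2, or folds of 0.366, 0.517, 0.579 and 0.579. The heat response of *sago-1* in sy441 differed from that in N2 by -0.66 (SE 0.21) on the log2 scale, and those of *hsf-1FL* and *hsf-1CTD* by 0.00 (SE 0.21) and -0.17 (SE 0.21). These 3 differences share the N2 libraries. None of them passed an adjusted P-value under 0.01 in edgeR, and no other gene tested did in these comparisons of heat responses. At an adjusted P-value under 0.01 in edgeR's quasi-likelihood test, *sago-1* was the 1 of the 10 called in each genotype, where the share of all genes tested that were called was 1.72% in sy441, 0.964% in *hsf-1CTD*, 0.819% in *hsf-1FL* and 0.669% in N2. Nothing is read from these calls, since the list was chosen with such results known. The call depended on the analysis. In N2 it held in 4 of 8 alternative analyses and in 6 of the 24 fits that left out 1 library, and it held in 24 of those 24 fits in sy441, 21 in *hsf-1CTD* and 12 in *hsf-1FL*. Most of the 24 left out a library of another genotype, which enters only through the scaling and the shared spread. Among fits that left out an N2 library, only that without HS replicate 3 kept the N2 call. Among those without an *hsf-1FL* library, only that without UT replicate 3 kept the *hsf-1FL* call. The log2 difference in N2 stayed between -0.91 and -0.69 in those 24 fits.

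**Figure D2:**
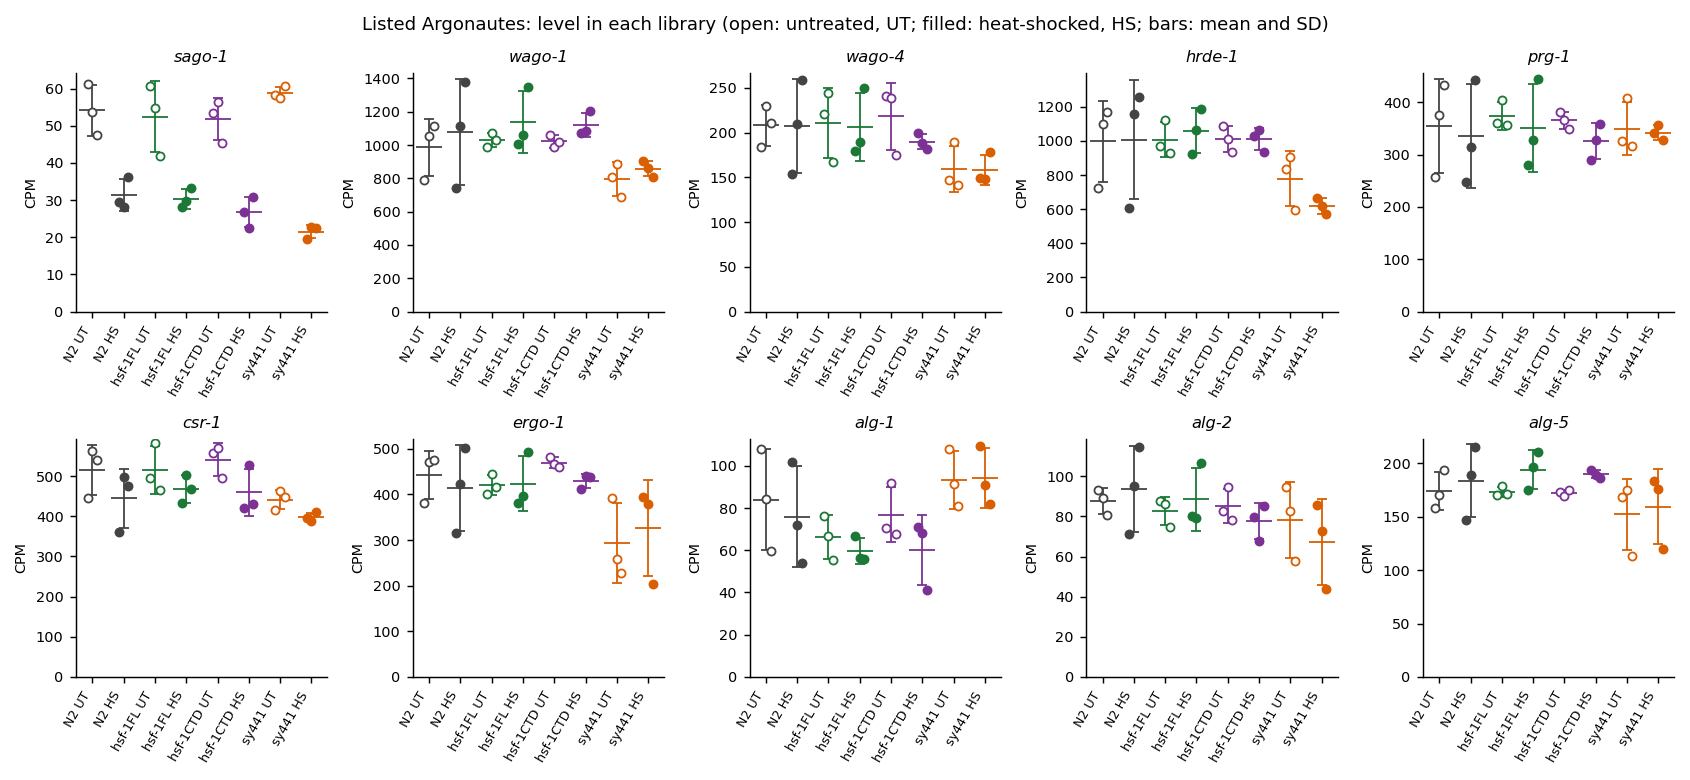
CPM of the 10 listed Argonautes in each library of the 8 conditions (open circles untreated, filled circles heat-shocked, bars mean and SD, y axes from 0). *sago-1* is the gene whose untreated and heat-shocked libraries separate in every genotype, 41.9 to 61.2 CPM against 19.5 to 36.3 CPM.

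The other 9 genes lay close to 0 in their difference with heat, between -0.35 and 0.16 on the log2 scale over the 4 genotypes. For *csr-1*, whose protein is the essential slicing Argonaute of the germline, the difference was -0.15 (SE 0.13) in sy441, -0.24 (SE 0.13) in *hsf-1CTD*, -0.14 (SE 0.13) in *hsf-1FL* and -0.21 (SE 0.13) in N2. Its level in sy441 was 416, 462 and 447 CPM untreated and 395, 389 and 410 CPM heat-shocked, without overlap, whereas in the other genotypes the groups overlapped. For *wago-1* the difference was 0.13 (SE 0.18) in N2 and 0.11 (SE 0.18) in sy441. For *prg-1* it was -0.08 (SE 0.20) in N2 and -0.03 (SE 0.20) in sy441. The microRNA Argonautes *alg-1* and *alg-2* stood at -0.15 (SE 0.24) and 0.10 (SE 0.21) in N2. *alg-5* was at 0.08 (SE 0.16) in N2 and 0.14 (SE 0.16) in *hsf-1CTD*, where its heat-shocked libraries at 194, 189 and 187 CPM all exceeded the untreated ones at 173, 170 and 175 CPM. *hrde-1* was at 0.02 (SE 0.22) in N2 and -0.33 (SE 0.22) in sy441.

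Counted over all 10, the heat-shocked and untreated libraries did not overlap for 2 genes in sy441 (*sago-1* and *csr-1* lower), 4 in *hsf-1CTD* (*sago-1* and *ergo-1* lower, *wago-1* and *alg-5* higher), 1 in *hsf-1FL* and 1 in N2. Among all genes tested, the share without overlap was 20.4% in sy441, 30.7% in *hsf-1CTD*, 25.7% in *hsf-1FL* and 15% in N2. The median log2 difference of the 10 was -0.02 in sy441, -0.15 in *hsf-1CTD*, -0.01 in *hsf-1FL* and -0.04 in N2, beside 0.06, -0.02, -0.03 and 0.02 over all genes tested. With RLE scaling the *hsf-1FL* median was 0.02.

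**Figure D3:**
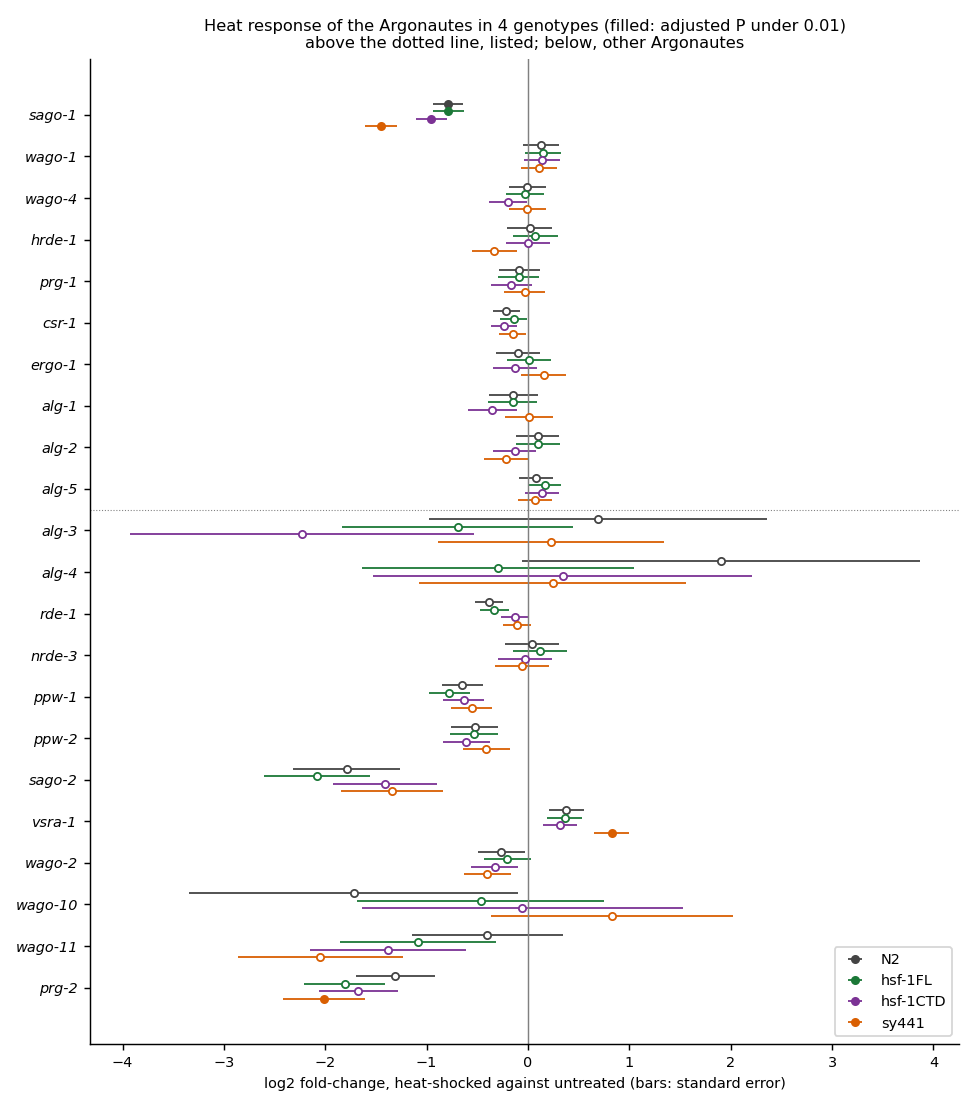
Log2 fold-change of heat-shocked against untreated animals with its standard error for the 22 Argonautes tested, in 4 genotypes (filled symbols: adjusted P-value under 0.01). *sago-1* lies at -0.79 to -1.45, the other 9 listed genes lie between -0.35 and 0.16, and *prg-2* and *sago-2* lie furthest below 0 among the other Argonautes that were above 0 in all libraries.

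Between genotypes, the libraries of both neuronal lines overlapped those of N2 for all 10 genes. The share of all genes without overlap was not computed for these comparisons, so nothing is read from this overlap. Among the 10, the largest differences were in *alg-1*, at -0.35 (SE 0.24) in untreated and -0.35 (SE 0.24) in heat-shocked *hsf-1FL* and -0.34 (SE 0.24) in heat-shocked *hsf-1CTD*. The median log2 difference from N2 was 0.00 in untreated *hsf-1FL*, 0.03 in untreated *hsf-1CTD*, 0.05 in heat-shocked *hsf-1FL* and -0.02 in heat-shocked *hsf-1CTD*, and none of the 10 was called in these comparisons. Calls there were also rare among all genes, 0.0197% in untreated *hsf-1FL*, 0.0197% in untreated *hsf-1CTD*, 0.0197% in heat-shocked *hsf-1FL* and 0.0131% in heat-shocked *hsf-1CTD*. In sy441, 8 of the 10 lay below N2 in untreated animals and 8 in heat-shocked animals, with medians of -0.21 and -0.34 beside 0.04 and 0.02 over all genes. None of the 10 was called, where 0.61% of all genes were called in untreated and 0.891% in heat-shocked sy441. In the analysis with surrogate variables (edgeR), the untreated median was -0.04 and the heat-shocked median -0.23.

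The largest difference of sy441 from N2 was in *hrde-1* among heat-shocked animals and in *ergo-1* among untreated animals. *hrde-1* was at 609, 1158 and 1257 CPM in heat-shocked N2 and 665, 619 and 573 CPM in heat-shocked sy441, a log2 difference of -0.70 (SE 0.22), and the groups overlapped through replicate 1 of N2. *ergo-1* was at 382, 470 and 476 CPM in untreated N2 and 392, 259 and 228 CPM in untreated sy441, a log2 difference of -0.59 (SE 0.22), again with overlap. *sago-1* in heat-shocked animals was at 28.3 to 36.3 CPM in N2 and 19.5 to 22.7 CPM in sy441, a log2 difference of -0.54 (SE 0.15), and was the 1 gene of the 10 without overlap there, where 18% of all genes tested did not overlap. In untreated animals this was 0 of the 10, beside 29.5% of all genes. *wago-4* differed by the same amount under both treatments, -0.39 (SE 0.19) untreated and -0.39 (SE 0.19) heat-shocked. The genes above N2 were *sago-1* at 0.12 (SE 0.15) and *alg-1* at 0.15 (SE 0.24) in untreated animals, and *prg-1* at 0.03 (SE 0.20) and *alg-1* at 0.31 (SE 0.24) in heat-shocked animals. ALG-1, with ALG-2, carries most microRNAs of somatic tissues. Some markers of germline and somatic tissues also differed between sy441 and N2, while others did not. The summed level of 10 oocyte and oogenic germline markers, none of them at 0, was 9372 to 11363 CPM in untreated N2 and 5744 to 9425 CPM in untreated sy441, and 7098 to 12762 CPM in heat-shocked N2 and 5315 to 9026 CPM in heat-shocked sy441. The summed level of 4 body muscle markers was 2050 to 2979 CPM in untreated N2 and 4301 to 7569 CPM in untreated sy441, and 2642 to 4412 CPM in heat-shocked N2 and 5451 to 12046 CPM in heat-shocked sy441. That of 5 hypodermis markers was 366 to 665 CPM and 797 to 1799.9 CPM in untreated animals, and 245 to 1061 CPM and 851 to 3161 CPM in heat-shocked animals. Of these 5 markers, 2 lay below N2 in heat-shocked sy441. All 4 pharynx markers were lower than in N2 under both treatments, with medians of -0.39 and -0.43 on the log2 scale. Their sums overlapped, at 193 to 498 CPM in untreated sy441 and 300 to 397 CPM in untreated N2. Their medians in the untreated neuronal lines were -0.98 (*hsf-1FL*) and -0.94 (*hsf-1CTD*). Sums of intestine, neuron and zygotic embryo markers overlapped N2 under both treatments. For 6 intestine markers they were 85821 to 99410 CPM in untreated sy441 and 80895 to 117796 CPM in untreated N2. The part of these marker levels in the Argonaute values was not tested.

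None of the 3 comparisons of heat responses called any of the 10 genes or any gene at all in edgeR (0% of genes tested in *hsf-1FL* against N2, 0% in *hsf-1CTD* and 0% in sy441). At an unadjusted P-value under 0.05 there were 91, 89 and 498 genes.

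In N2 and sy441, part of the variation among the 10 genes ran with the replicates. This was not so in every genotype. In *hsf-1FL*, *wago-4*, *hrde-1* and *prg-1* were lowest in replicate 3 untreated (168, 928 and 356 CPM). They were highest in replicate 3 heat-shocked (250, 1189 and 445 CPM). The share of all genes with such an order was not computed, so nothing is read from the counts of genes. In N2, 7 genes (*wago-1*, *wago-4*, *hrde-1*, *prg-1*, *csr-1*, *ergo-1* and *alg-5*) were lowest in replicate 1 under both treatments, and *alg-1* was highest there. The oogenic marker sum was lowest in the same libraries, 9372 CPM untreated and 7098 CPM heat-shocked. Sums of sperm, intestine, body muscle, neuron, pharynx and zygotic embryo markers were highest in these libraries among those of N2 with the same treatment. The hypodermis sum was not highest there. In sy441, 7 genes (*wago-1*, *hrde-1*, *prg-1*, *ergo-1*, *alg-1*, *alg-2* and *alg-5*) were lowest in replicate 3 under both treatments, the libraries with the lowest oogenic sums (5744 and 5315 CPM) and the highest sperm sums (1548 and 1959.8 CPM). *alg-2* fell there to 57.6 CPM untreated and 43.9 CPM heat-shocked, against 72.7 to 94.5 CPM in replicates 1 and 2. In the same sy441 libraries the body muscle, hypodermis and pharynx sums were also highest and the intestine sum was lowest. The part of any of these sums in the gene levels was not tested.

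The 24 libraries include those with the differing marker sums above. Over them, Pearson's r of log2 CPM was 0.87 between *wago-1* and *hrde-1*, 0.83 between *wago-1* and *alg-5*, and 0.81 between *ergo-1* and *alg-5*. It was -0.77 between *wago-1* and *alg-1*. *sago-1* was not close to any of the others, its highest r being 0.50 with *csr-1*. Outside the small RNA genes, the 2 genes most like *sago-1* were *mnr-1* (r = 0.92) and *F35C12.7* (r = 0.92), whose log2 differences with heat lay between -1.54 and -3.02 and between -2.22 and -3.96 over the 4 genotypes. The genes most like the others were *npp-13* and *R07B7.2* for *wago-1* (r = 0.97 and 0.96), *pcf-11* and *B0334.5* for *wago-4* (0.90 and 0.90), *cdc-48.1* and *hil-4* for *hrde-1* (0.95 and 0.93), *rsp-5* and *slc-30A5* for *prg-1* (0.84 and 0.83), and *pfd-3* and *mnat-1* for *csr-1* (0.89 and 0.85). For *ergo-1* they were *ctf-4* and *gld-3* (0.97 and 0.97), for *alg-1* *F44E2.4* and *F09C8.2* (0.94 and 0.92), for *alg-2* *hmr-1* and *mbk-2* (0.89 and 0.87), and for *alg-5* *fzy-1* and *T12G3.6* (0.97 and 0.96). These coefficients are a description and were not tested.

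The remaining Argonautes give the family context. Of 13 other family members in the table, 12 were tested. *wago-5* was left out, at 0 to 0.202 CPM. In sy441, 2 of the 12 passed the threshold with heat, *vsra-1* higher and *prg-2* lower, beside 1.72% of all genes tested. This list too was put together with earlier results known, so the count is not independent evidence, and it was 0 when only the libraries compared were fitted and 0 to 2 when each library was left out in turn. None was called in the other genotypes. An unadjusted P-value under 0.05 was found for 5 of the 12 in sy441, 4 in *hsf-1CTD*, 6 in *hsf-1FL* and 6 in N2, beside 19.4%, 16.6%, 14.7% and 12.2% of all genes.

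*vsra-1*, which encodes a WAGO-group Argonaute, was at 64.3, 69.1 and 44.9 CPM in untreated sy441 and 101, 102 and 112 CPM in heat-shocked sy441. The log2 difference was 0.82 (SE 0.17, adjusted P-value = 0.00752, edgeR), and the heat-shocked libraries all lay above the untreated ones. In N2, *hsf-1FL* and *hsf-1CTD* the *vsra-1* difference was 0.38, 0.36 and 0.31 (each SE 0.17), with adjusted P-values of 0.361, 0.331 and 0.380. The heat response of *vsra-1* in sy441 was not shown to differ from that in N2, at 0.45 on the log2 scale (95% interval -0.02 to 0.92, adjusted P-value = 1). The sy441 call of *vsra-1* held in 7 of the 24 fits that left out 1 library, and in each of those 7 the library was of another genotype. Over the 24 fits the differences were 0.66 to 0.94, and the adjusted P-value (edgeR) reached 0.0477.

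*prg-2* is a close relative of *prg-1* that is annotated as a pseudogene, so reads of both genes may be exchanged between them. It was at 205, 150 and 188 CPM in untreated sy441 and 41.9, 47.4 and 45.1 CPM in heat-shocked sy441, a log2 difference of -2.01 (SE 0.40, adjusted P-value = 0.00539, edgeR). In N2 it was at 209, 309 and 278 CPM untreated and 158, 42.8 and 120 CPM heat-shocked (log2 difference -1.31, SE 0.39, adjusted P-value = 0.0958). The difference was -1.81 (SE 0.40, adjusted P-value = 0.0157) in *hsf-1FL* and -1.67 (SE 0.39, adjusted P-value = 0.0233) in *hsf-1CTD*. Heat-shocked libraries lay below untreated ones in all 4 genotypes, while those of *prg-1* itself overlapped, at 257, 376 and 432 CPM in untreated N2 and 247, 315 and 443 CPM in heat-shocked N2. With the replicate number as a block, *prg-2* (adjusted P-value = 0.00945) and *sago-2* (adjusted P-value = 0.00755) were called in *hsf-1FL* too.

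3 secondary Argonautes had lower values with heat in every genotype without passing the threshold. *ppw-1*, needed for RNAi in the germline, was at 84.0, 104.2 and 111 CPM in untreated N2 and 54.5, 50.8 and 85.9 CPM in heat-shocked N2. Its log2 differences were -0.65, -0.78, -0.63 and -0.56 in N2, *hsf-1FL*, *hsf-1CTD* and sy441 (each SE 0.20), with adjusted P-values of 0.121, 0.0417, 0.0937 and 0.123. *sago-2*, whose protein like SAGO-1 carries secondary small RNAs in RNAi, was scarce, at 0.821, 2.65 and 3.23 CPM in untreated N2 and 0.354, 0.348 and 1.22 CPM in heat-shocked N2. The *sago-2* differences were -1.79 (SE 0.53), -2.08 (SE 0.52), -1.41 (SE 0.51) and -1.34 (SE 0.50), with adjusted P-values of 0.0930, 0.0347, 0.146 and 0.133. Without HS replicate 3 of N2, the N2 value was -2.64. *ppw-2*, a germline member also called WAGO-3, differed by -0.52, -0.53, -0.61 and -0.41 (each SE 0.23), with adjusted P-values of 0.354, 0.281, 0.174 and 0.353.

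**Figure D4:**
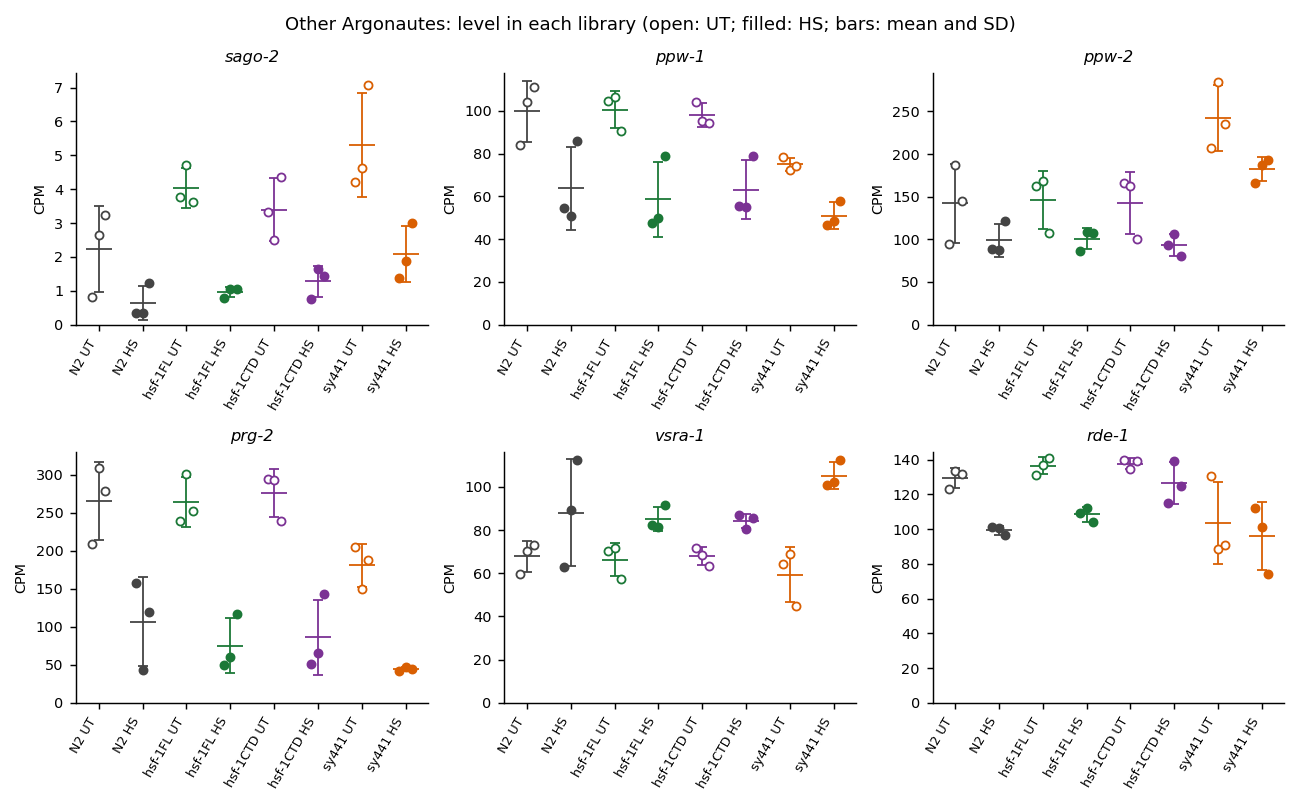
CPM of 6 other Argonautes in each library of the 8 conditions (open circles untreated, filled circles heat-shocked, bars mean and SD, y axes from 0). *prg-2* separates by treatment in every genotype, *vsra-1* is above its untreated level in heat-shocked sy441 (101 to 112 CPM against 44.9 to 69.1), and *ppw-2* is highest in untreated sy441 at 207 to 284 CPM.

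When 3 surrogate variables, estimates of unmodelled variation, were added to the edgeR model, the number of other Argonautes called with heat rose to 4 in sy441, 3 in *hsf-1CTD*, 3 in *hsf-1FL* and 2 in N2. Calls rose among all genes too, to 8.65%, 5.07%, 3.85% and 3.8%. *ppw-1* was called in all 4 genotypes in that analysis (adjusted P-values of 0.00136 to 0.00430), *sago-2* in N2, *hsf-1FL* and sy441 (0.00457, 0.00212 and 0.00501), *prg-2* in *hsf-1FL*, *hsf-1CTD* and sy441 (0.00791, 0.00950 and 0.00108), *ppw-2* in *hsf-1CTD* (0.00425) and *vsra-1* in sy441 (0.000982).

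*rde-1*, the primary Argonaute of exogenous RNAi, differed by -0.38 (SE 0.14) with heat in N2 and by -0.11 (SE 0.14) in sy441, with adjusted P-values of 0.20 and 0.768. *nrde-3*, the nuclear Argonaute of somatic RNAi, was between -0.06 and 0.12 on the log2 scale in the 4 genotypes (SE 0.26 to 0.27). The annotated pseudogenes *wago-2* and *wago-11* were below 0 in all 4 genotypes, by -0.21 to -0.40 and -0.40 to -2.05, and neither was called. *wago-11* rests on 0 to 16 counts in heat-shocked sy441, where its value was -3.87 without HS replicate 1. Leaving out HS replicate 3 gave -2.08 in *hsf-1CTD* and -1.89 in *hsf-1FL*. Reads of these pseudogenes and of other WAGO genes may also be exchanged.

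Against N2, the other Argonautes that stood furthest apart were those of sperm formation. *alg-3* and *alg-4* encode the Argonautes that carry 26G RNAs during spermatogenesis, and *wago-10* is expressed in the same germline stage. In N2 they had at most 13, 16 and 7 counts in a library. All 3 passed the count filter only through libraries of *hsf-1FL* and sy441, where they were high. Their differences from N2 are therefore given as a description. *alg-3* was at 0.342, 0.133 and 0.0688 CPM in untreated N2 and 2.80, 11.3 and 56.1 CPM in untreated sy441. *alg-4* was at 0.410, 0 and 0 CPM in untreated N2 and 0.734, 10.4 and 65.9 CPM in untreated sy441. *wago-10* was at 0.479, 0.332 and 0.206 CPM in untreated N2 and 0.467, 1.61 and 14.5 CPM in untreated sy441. In untreated animals *alg-3* and *alg-4* did not overlap between sy441 and N2 and *wago-10* did, where 29.5% of all genes tested did not overlap. In heat-shocked animals all 3 lay above N2 without overlap, where 18% of all genes tested did not overlap. *wago-10* was then at 0.152, 0.139 and 0 CPM in N2 and 0.662, 0.978 and 27.8 CPM in sy441. Nothing is read from overlap or from tests of these 3 genes against N2, because of how they passed the filter.

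Replicate 3 of sy441 was far above replicates 1 and 2 in all 3 genes, as it was in the sperm sum. In *hsf-1FL*, replicate 1 was the highest for *alg-3* under both treatments, at 23.0 and 14.6 CPM, and it also had the highest sperm sums, 579 and 453 CPM. The part of sperm content in these values was not tested. *ppw-2* was higher in sy441 without overlap under both treatments, by 0.77 (SE 0.23, adjusted P-value = 0.0479) untreated and 0.88 (SE 0.23, adjusted P-value = 0.0360) heat-shocked, with no call.

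**Figure D5:**
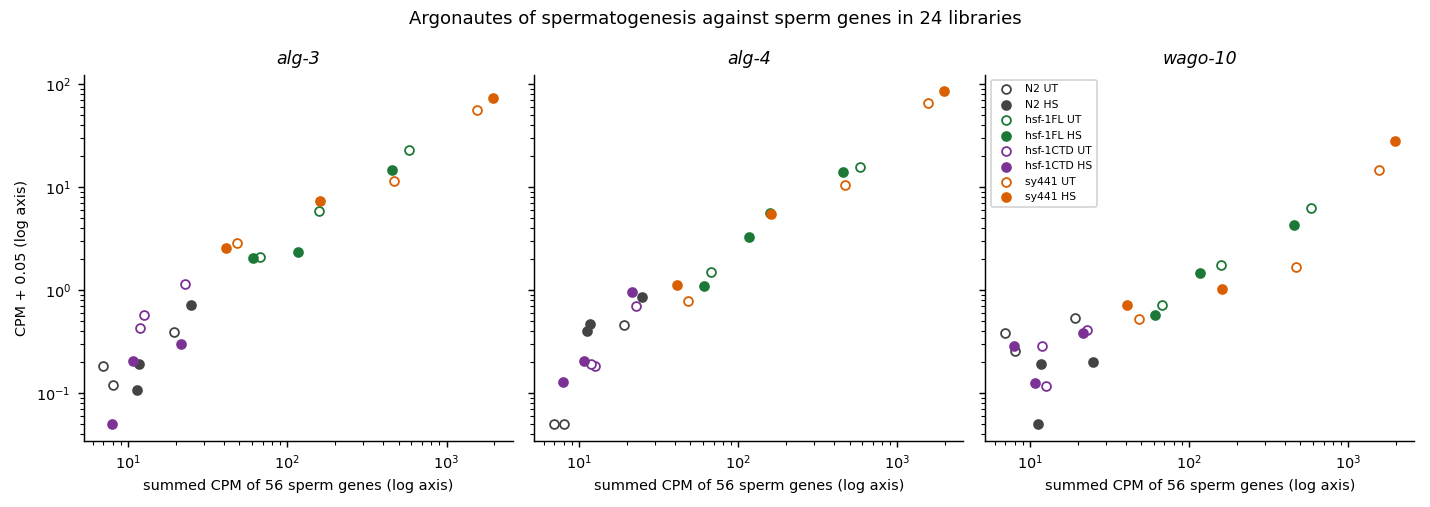
CPM of *alg-3*, *alg-4* and *wago-10* (plus an offset of 0.05 so that 0 can be drawn) against the summed CPM of 56 sperm genes, both on log axes, in each of the 24 libraries (open circles untreated, filled circles heat-shocked). The 2 libraries of sy441 replicate 3 lie at the upper right, with sums of 1548 and 1959.8 CPM and *alg-3* at 56.1 and 72.6 CPM.

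The genes that make or use small RNAs with the Argonautes were taken as 7 lists, of which 75 genes were tested: Dicer and primary small RNA factors (14), RNA-dependent RNA polymerases and the Mutator complex (16), piRNA biogenesis factors (12), nuclear RNAi factors (9), germ granule factors (11), double-stranded RNA transport (7) and microRNA silencing partners (6). None of the 75 was called in any of the 13 comparisons by edgeR. The share of all genes called ran from 0% in the comparisons of heat responses to 1.72% with heat in sy441. At such shares few or no calls among 75 genes would be usual, so nothing is read from their absence. With heat, 15 in sy441, 7 in *hsf-1CTD*, 6 in *hsf-1FL* and 4 in N2 had an unadjusted P-value under 0.05, beside 19.4%, 16.6%, 14.7% and 12.2% of all genes. The medians of the 75 were 0.18, 0.04, 0.02 and -0.02, beside 0.06, -0.02, -0.03 and 0.02 over all genes. In untreated sy441 against N2, 37 of the 75 had an unadjusted P-value under 0.05, where 29.6% of all genes did, and the median was -0.32. In heat-shocked sy441 against N2 it was 18 of the 75, where 25.04% of all genes did, and the median was -0.14.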

How the data were processed

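The authors trimmed reads with Trim Galore 0.6.7-1, aligned them to WBcel235 with STAR 2.7.10a and counted them with featureCounts (Subread 2.0.3, annotation release 107). The deposited values are raw counts per gene. Strand setting and treatment of multi-mapping reads are not given in the sources used here. *csr-1* shares 438 exon bases with *frpr-10* on the same strand, and *alg-5* shares 71 with *cfi-1* on the other.

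Counts were scaled by TMM and tested with edgeR 4.0.16 (R 4.3.3) quasi-likelihood F-tests on all 24 libraries, with 1 mean per condition, Benjamini-Hochberg adjustment over 15256 genes and a call at an adjusted P-value under 0.01, in 13 comparisons. The deposited exon lengths gave CPM per kilobase. Alternatives were DESeq2 1.42.0, surrogate variables (sva 3.50.0), RLE scaling, no filter beyond 1 count, a replicate block, only the libraries compared, a threshold of 0.05, and leaving out each library. The fits were tested on simulated counts, where both DESeq2 analyses called more unchanged genes than edgeR did and more than their threshold allows. Those counts were drawn with edgeR's own estimates of spread and without replicate structure, unlike the data, which may favour edgeR. The limit on false calls was applied to the edgeR fits only, after DESeq2 had missed it. The rate of false calls in the data was not tested, and calls made by DESeq2 alone are not read as support. Leaving out 4 libraries with high sperm-gene levels (replicate 1 of *hsf-1FL* and replicate 3 of sy441, both treatments) was chosen after seeing the data. They are not the 4 highest, since replicate 2 of untreated sy441 (467 CPM) was kept and replicate 1 of heat-shocked *hsf-1FL* (453 CPM) was not.

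Same-numbered untreated and heat-shocked libraries deviated together in N2, *hsf-1FL* and sy441 (correlations of 0.25 to 0.81). In *hsf-1CTD* the correlations were -0.05, 0.20 and 0.27 for replicates 1, 2 and 3. The 10 genes and all lists were chosen with earlier results of these data known. Named were the 10 genes, all other Argonautes, called genes of the small RNA lists and the 2 genes most like each of the 10. *wago-2*, *wago-11* and *prg-2* were matched by RefSeq locus, and 2 symbols (*tofu-3*, *ntl-1*) had no match. Replicates are biological per the authors' methods.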

Additional observations from a re-analysis of the deposited data

How the results depend on the processing

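The number of the 10 listed Argonautes called with heat, 1 in each genotype, was 0 in N2 and 0 in *hsf-1FL* with RLE scaling, with no filter beyond 1 count, and without the 4 libraries of high sperm-gene level. It was 0 in all 4 genotypes when only the libraries compared were fitted. DESeq2 with surrogate variables called 2 in *hsf-1CTD* and 2 in sy441 with heat and 1 in heat-shocked sy441 against N2, as did a threshold of 0.05 with 1 in the last. Leaving out each library in turn gave 0 to 1 with heat in *hsf-1CTD*, *hsf-1FL* and N2, and 0 to 1 in heat-shocked sy441 against N2. In *hsf-1CTD* the *sago-1* call was lost without HS replicate 2, UT replicate 1 or UT replicate 2. The cause was not tested.

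Of the other Argonautes, 0, 0, 0 and 2 were called with heat in N2, *hsf-1FL*, *hsf-1CTD* and sy441. DESeq2 called 2 in *hsf-1FL* and 1 in *hsf-1CTD*, and DESeq2 with surrogate variables 3, 4, 4 and 5. edgeR with surrogate variables called 2, 3, 3 and 4. No filter beyond 1 count gave 1 in *hsf-1FL* and 1 in *hsf-1CTD*, a threshold of 0.05 gave 3 and 1, and the replicate block gave 2 in *hsf-1FL* and changed no other call. In sy441 the count was 0 when only the libraries compared were fitted and 0 without the 4 libraries of high sperm-gene level. Against N2, with 0 called in each comparison, DESeq2 called 1 in untreated *hsf-1FL*, 2 in untreated sy441 and 4 in heat-shocked sy441. With surrogate variables, edgeR called 1 in each of these 3 comparisons and DESeq2 1 in each of them and 1 in heat-shocked *hsf-1FL*. No filter beyond 1 count gave 2 in untreated and 2 in heat-shocked sy441, and a threshold of 0.05 gave 3 and 4. Leaving out each library in turn gave 0 to 2 with heat in *hsf-1FL*, 0 to 1 in *hsf-1CTD*, 0 to 2 in sy441, 0 to 2 in untreated sy441 against N2 and 0 to 1 in heat-shocked sy441 against N2. Apart from *ppw-2* in sy441, every gene called against N2 in these settings was *alg-3*, *alg-4* or *wago-10*. Those genes passed the main count filter only through the groups where they were high. The share of all genes called against N2 in these settings was not computed, so nothing is read from these calls.

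Of 1280 recomputed heat differences of the 10 genes, 17 moved by more than 1 SE, and no called value changed sign. Depth did not limit the listed genes, but *alg-3*, *alg-4*, *wago-10* and *sago-2* rest on few counts in N2, and *wago-11* in sy441.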
